A study of Sus scrofa with 8 samples.

Results

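Lymph node clone 4 is 1 of 6 pig (Sus scrofa) B cell lymphoma clones, and 1 of 8 libraries in all, profiled by paired-end RNA sequencing. It was set against the other 5 clones, which are lymph node clones 1, 2 and 3 and spleen clones 1 and 2. It was selected on its own read counts, in which it stood apart from the other clones, so the differences from the other clones are a description, with 1 library on one side and no test. Every clone was grown in culture from tumour cells dissociated by hand, in complete RPMI medium, and went through 4 rounds of limiting dilution, in which cells are diluted until a culture starts from few cells or 1. The lymph node clones came from a subileac lymph node tumour. A library of splenocytes enriched with magnets for CD21+ cells, a marker of mature B cells, and one enriched for CD3+ cells, a marker of T cells, served as reference only, with 1 library each. The labels give no treatment, genotype, strain or age, and the number of animals behind the clones is not stated. Each clone is 1 library, so the spread given below is the spread between clones, and no clone has a repeat of its own.

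Developing B cells assemble their antibody genes by V(D)J recombination, in which RAG1 and RAG2 cut the DNA and end-joining proteins close it. Both genes are on in lymphocyte progenitors and are off in most mature B cells. Of the other genes given as marks of clone 4, SLC6A4 encodes the serotonin transporter, best known from neurons and platelets, HNRNPLL encodes an RNA-binding protein that controls splicing of the CD45 transcript, and CADM1 encodes a cell adhesion molecule.

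Lymph node clone 4 had the deepest library, with 27253505 counts against 16415644 to 27040555 in the other clones. It had 14476 features above 0 counts, within the range of 14374 to 14715 in the others. Mitochondrial genes took 7.17% of its counts against 7.05 ± 0.626% (SD, n = 5), and ribosomal protein genes 8.22% against 7.68 ± 0.156% (SD, n = 5). Its scaling factor by the trimmed mean of M-values (TMM, a correction for differences in RNA composition) was 1.03 against 1.07 ± 0.0101 (SD, n = 5), the lowest of the 6 clones. Levels below are counts scaled to a common library size (CPM) after that correction, and 3 counts in lymph node clone 4 correspond to 0.107 CPM. Values of the other clones are given in the order lymph node clones 1, 2 and 3, then spleen clones 1 and 2.

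The marks of B cells were present in lymph node clone 4. PAX5, a transcription factor that fixes B cell identity, stood at 1709 CPM against 1628 to 2160 in the other clones. EBF1, a transcription factor of early B cells, stood at 476 CPM, above the 311 to 380 of the others. Of 22 T cell genes, 9 reached 1 CPM in some clone. The T cell receptor chains CD3D, CD3E and CD3G stood at 0.0357, 0.428 and 0.143 CPM in lymph node clone 4, and CD4, CD8B, GATA3 and BCL11B had 0 counts there. The summed level of the T cell list was 339 CPM against 265 to 282 in the other clones. The summed level of 20 myeloid genes was 216 CPM against 170 to 196, with CD14 and CD163 at 0 counts. Sums were 18.8 CPM against 18.9 to 28.0 for 12 natural killer and cytotoxic genes, and 127 against 118 to 126 for 11 erythroid and platelet genes. They were 11.5 CPM against 18.3 to 26.5 for 14 genes of stroma and endothelium, with COL1A1, COL1A2, COL3A1, VWF and CDH5 at 0 counts. The 0 counts named here are those of lymph node clone 4 and are not set against the other clones. Whether RNA from other cells plays a part in the differences below was not tested.

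The 5 marks had log2 differences of 2.53 to 4.91 from the other clones, and in each of the 5 spleen clone 2 was the second highest. RAG1, the catalytic subunit of the V(D)J recombinase, stood at 29.9 CPM in lymph node clone 4 and at 1.69, 1.33, 1.21, 1.46 and 4.23 CPM in the other clones. Both control libraries had 0 counts of it. The other clones lay within a narrow band, apart from the higher value of spleen clone 2. On the log2(CPM + 0.5) scale used for all differences, lymph node clone 4 lay 3.73 above the mean of the others, whose SD was 0.60 (n = 5). RAG1 lies on chromosome 2 of the Sscrofa11.1 build, at 24565447 to 24573853.

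RAG2, the partner subunit, lies beside it on chromosome 2, at 24547605 to 24553944. It stood at 319 CPM in lymph node clone 4 and at 35.6, 47.6, 53.1, 57.3 and 96.5 CPM in the others. The transcript was present in all 6 clones, and spleen clone 2 was again the second highest. The log2 difference was 2.53 (SD of the others 0.52, n = 5). The annotated gene C2H11orf74 overlaps RAG2, and the use of strand in counting is not stated, so that reads in the overlap could belong to either gene.

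SLC6A4 stood at 379 CPM in lymph node clone 4 and at 47.1, 42.4, 41.1, 15.2 and 95.2 CPM in the other clones. The controls were at 0.229 CPM (CD21+) and 0.360 CPM (CD3+). The transcript was therefore present in all 6 clones, with lymph node clone 4 highest and spleen clone 1 lowest. The log2 difference was 3.18 (SD of the others 0.93, n = 5). The gene lies on chromosome 12, at 46285995 to 46328377, where 2 annotated loci without gene names overlap it.

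HNRNPLL stood at 65.8 CPM in lymph node clone 4 and at 2.26, 1.09, 1.44, 0.0695 and 10.1 CPM in the other clones. The CD3+ control, at 91.2 CPM, was the only library above lymph node clone 4, and the CD21+ control stood at 2.01 CPM. The log2 difference was 4.91 (SD of the others 1.52, n = 5), the largest of the 5 marks. HNRNPLL lies on chromosome 3, at 101753330 to 101795356.

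CADM1 stood at 28.9 CPM in lymph node clone 4 and at 1.41, 0.238, 0.872, 0.0695 and 5.95 CPM in the others. Spleen clone 1 was again near the floor and spleen clone 2 again second. The controls stood at 1.65 and 1.501 CPM. The log2 difference was 4.31 (SD of the others 1.37, n = 5). CADM1 lies on chromosome 9, at 42644487 to 42984934. The plot of the marks by library shows these values together.

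**Figure D1:**
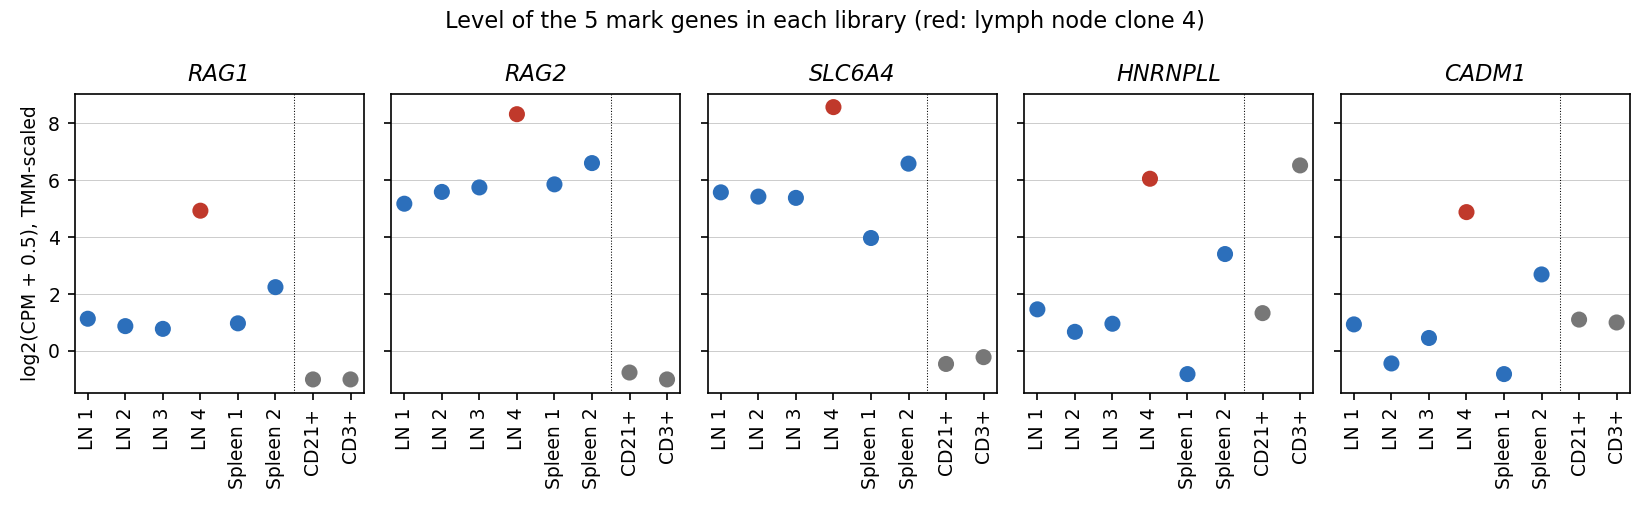
Level of RAG1, RAG2, SLC6A4, HNRNPLL and CADM1 on the log2(CPM + 0.5) scale (vertical axis) in the 6 clones and 2 control libraries (horizontal axis), 1 point per library, with lymph node clone 4 in red. It is the highest clone in each panel and spleen clone 2 is the second highest, for example 29.9 and 4.23 CPM for RAG1.

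The genes around the marks mostly did not share their difference. On the RAG2 side of the RAG pair, the nearest tested gene with a known position was API5, an apoptosis inhibitor, at 192 CPM against 165 to 182. It ends at 18994235, far from the RAG2 start at 24547605, so it says little about the RAG locus. TRAF6, a signalling adaptor, stood at 43.5 CPM against 30.0 to 33.7. COMMD9 and LDLRAD3 also lay within 2-fold of the nearest other clone. TRIM44, the fourth tested gene after RAG1, was the exception at 33.4 CPM against 0.695 to 7.92. Next to HNRNPLL, GALM, an enzyme of galactose metabolism, stood at 9.64 CPM against 0.618 to 3.31, while SRSF7 and ATL2 on either side of the pair lay within 2-fold. The genes on either side of SLC6A4 (NSRP1 and BLMH) and of CADM1 (REXO2 and BUD13) also lay within 2-fold of the nearest other clone.

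Over the transcriptome, a feature was called when lymph node clone 4 lay 2-fold or more beyond the nearest of the other 5 clones. Of 11967 features with 1 CPM or more in some clone, 77 were above the other clones by this measure, which is 0.643%, and 184 were below, which is 1.54%. The 261 in either direction make 2.18%. These counts come from the contrast by which the clone was chosen, and nothing is read from their size alone.

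The same count for the other clones shows the scale. Lymph node clone 1 had 19 features above and 18 below, spleen clone 1 had 2 and 5, and spleen clone 2 had 2 and 1. Lymph node clone 3 had 1 in each direction and lymph node clone 2 had 0. Taken in pairs, lymph node clone 4 differed 2-fold or more in 756 features from lymph node clone 1, 653 from clone 2, 679 from clone 3, 638 from spleen clone 1 and 513 from spleen clone 2. The other 10 pairs differed in 8 to 379. The smallest of these was between lymph node clones 2 and 3, and the largest between lymph node clone 1 and spleen clone 2. These sizes too restate the choice of the clone and are a description.

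**Figure D2:**
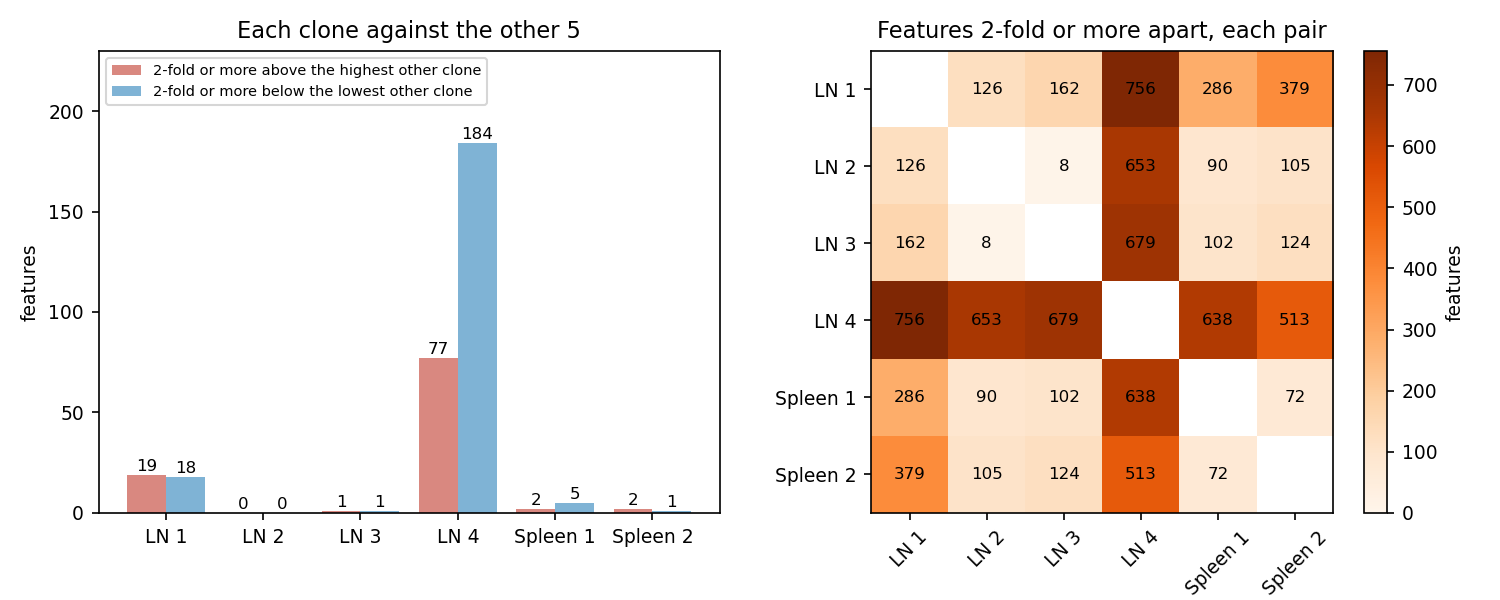
Left, number of features (vertical axis) 2-fold or more above or below all of the other 5 clones, for each clone in turn, and right, number of features 2-fold or more apart for each pair of clones, shown by colour. Lymph node clone 4 has 77 and 184 features on the left, and its 5 pairs on the right have 513 to 756 against 8 to 379 in the others.

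Most called features had low to moderate levels. Of the 77 above, lymph node clone 4 reached 10 CPM in 33 and 100 CPM in 5, and the highest of the other clones was under 1 CPM in 24. Of the 184 below, lymph node clone 4 was under 1 CPM in 87, while the lowest of the other clones reached 10 CPM in 57 and 100 CPM in 2. Lymph node clone 4 had 3 counts or fewer in 19 of the 184 and 0 counts in CYSLTR2, SEPT10 and FAM110C. Just inside the threshold was ARAP2, at 468 CPM against at most 234 in the others. ABCA9, at 4.43 against at most 1.97 CPM, lay just outside it.

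Of the genes with symbols, the 15 with the largest gap above the other clones included 4 of the 5 marks, since RAG2 had a smaller gap. BBS1, part of the complex that carries proteins into cilia, had the largest gap. It stood at 10.3 CPM in lymph node clone 4 and at 0.226, 0.238, 0.265, 0.0348 and 0.921 CPM in the others, with 8.28 CPM in the CD21+ and 19.3 in the CD3+ control. The clones other than clone 4 were thus also far below both controls. ZNF773, named for its zinc fingers, stood at 25.7 CPM against 1.07, 0.523, 0.682, 0.104 and 3.89, with 8.10 and 12.6 in the controls. DNASE1L1, a relative of the nuclease DNase I, stood at 13.3 CPM against 0.620, 0.380, 0.341, 0.104 and 2.14. In the CD21+ control it was higher still, at 80.4 CPM.

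AKAP12, a scaffold for protein kinases, stood at 63.6 CPM in lymph node clone 4 and at 5.47, 7.46, 6.71, 5.56 and 15.2 CPM in the others, a level 7.87 times the mean of the others. CAPSL, a calcium-binding protein relative, stood at 61.4 CPM against 4.45, 6.27, 7.09, 8.83 and 17.7, or 6.93 times their mean. In both genes spleen clone 2 was again second, and the call itself keeps the other clones from overlapping lymph node clone 4. TRIM44 stood at 33.4 CPM against 1.58, 0.713, 0.834, 0.695 and 7.92, with 22.2 and 81.4 CPM in the controls. SLC8A3, a sodium-calcium exchanger, stood at 10.3 CPM and the others within 1.40 to 2.72 CPM. The remaining members of this set, TMEM35A, WDR72, PRKG1 (a kinase activated by cyclic GMP) and AGFG2, stood at 3.35 to 6.92 CPM in lymph node clone 4 and at most 1.42 CPM in the others.

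Below the other clones, SATB1 had the largest gap. SATB1, an organiser of chromatin known from T cell development, stood at 0.749 CPM (21 counts) in lymph node clone 4 and at 39.1, 35.9, 35.8, 39.9 and 34.0 CPM in the other clones. The controls had 12.8 CPM (CD21+) and 119 CPM (CD3+). The other clones differed little among themselves, and lymph node clone 4 lay below both controls as well. The log2 difference was -4.90 (SD of the others 0.09, n = 5), and the lowest other clone was 27.6-fold higher on the log2(CPM + 0.5) scale. SATB1 lies on chromosome 13, at 5315985 to 5410686.

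ST7, a gene named as a suppressor of tumorigenicity, had 2 counts in lymph node clone 4, or 0.0714 CPM, against 7.56, 9.17, 10.7, 6.57 and 9.59 CPM. The ratio of the other clones to lymph node clone 4 was 122 (95% counting interval 33.7 to 1010, counting error only). PLAG1, a zinc finger transcription factor, had 3 counts, or 0.107 CPM, against 8.35, 6.85, 6.03, 7.47 and 5.44 CPM, a ratio of 63.1 (95% counting interval 21.5 to 307). EDA, the ligand ectodysplasin, had 1 count against 2.40 to 4.96 CPM, a ratio of 91.3 (95% counting interval 16.3 to 3617). All 3 genes were near absent in lymph node clone 4 and present in every other clone. ST7 was also expressed in both controls, at 4.57 and 6.78 CPM.

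CD9, a tetraspanin of the cell surface, stood at 1.32 CPM in lymph node clone 4 and at 14.7, 16.2, 16.9, 20.02 and 17.05 CPM in the others. AOX1, aldehyde oxidase, stood at 4.35 CPM against 36.7, 50.2, 49.3, 40.2 and 37.1 CPM. C8orf58 stood at 0.857 CPM against 15.7 to 19.5 CPM. In that order the log2 differences were -3.26, -3.14 and -3.74. Ion channel genes among the 15 were SCN9A, a sodium channel, at 1.14 CPM against 11.4 to 13.5, and CACNA1H, a calcium channel, at 0.286 against 3.67 to 5.89. Both had 0 counts in the 2 controls. The kinesin KIF21A stood at 0.964 CPM against 10.1 to 11.3, and the sulfotransferase CHST9 at 1.21 against 10.3 to 16.9. MATN2, an extracellular matrix protein, stood at 1.499 CPM against 10.5 to 13.03, and the transcription factor gene TRERF1 at 0.928 against 7.13 to 13.8. MAMLD1 and CTTNBP2, at 0.607 and 0.428 CPM, completed the set.

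**Figure D3:**
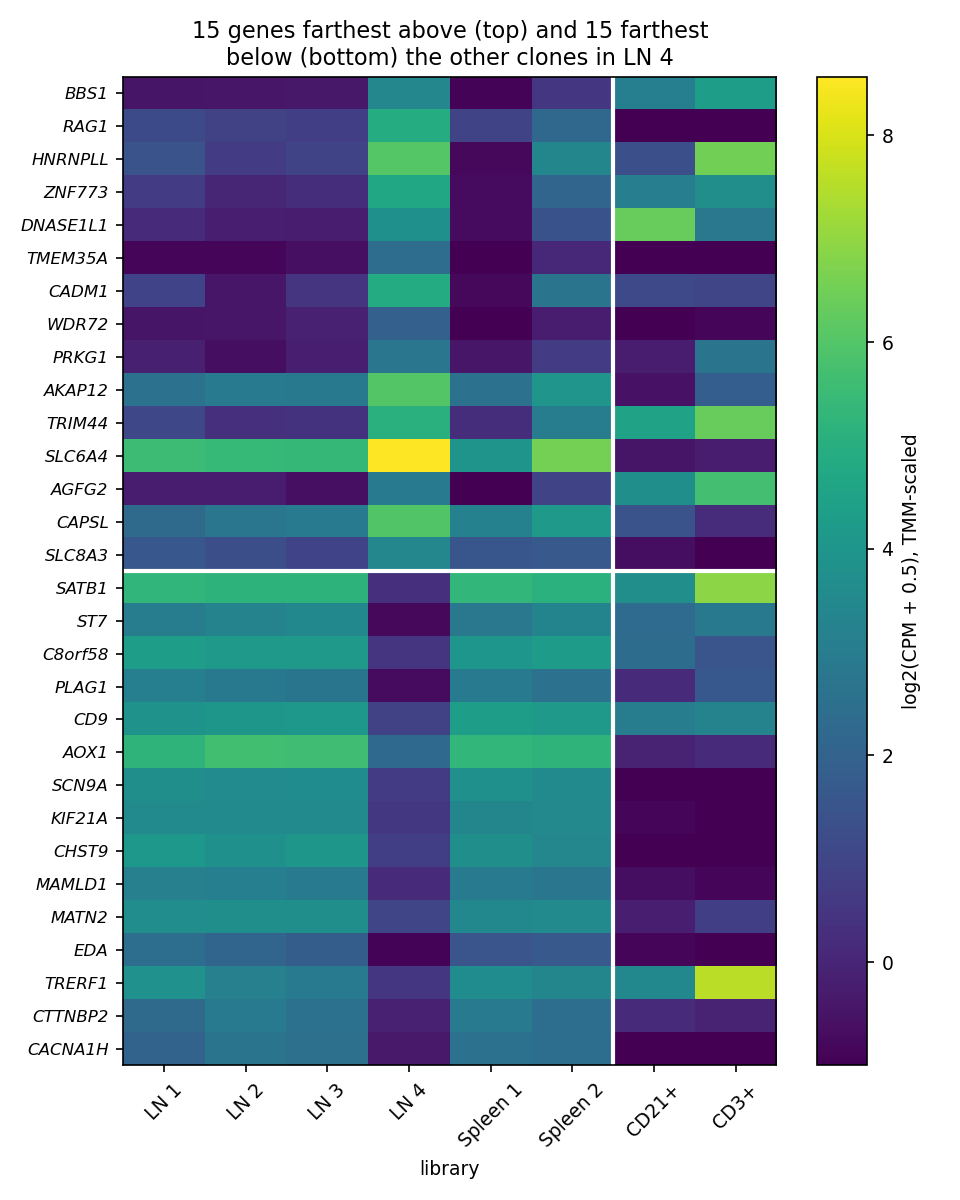
Level on the log2(CPM + 0.5) scale (colour) of the 15 genes farthest above the other clones in lymph node clone 4 (top rows) and the 15 farthest below (bottom rows), in the 6 clones and, right of the line, the 2 controls. The fourth column, lymph node clone 4, stands apart in every row by the choice of the rows, as with SATB1 at 0.749 CPM against 34.0 to 39.9 CPM.

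Genes of V(D)J recombination differed unevenly. Of 14 tested genes of V(D)J recombination and end joining, 3 were called above (RAG1, RAG2 and DNTT) and 0 below, beside 0.643% and 1.54% of all tested features. RAG1 and RAG2 were given as marks of the clone. DNTT was not, but its call comes from the same counts by which the clone was selected. Above all other clones by any amount lay 7 of the 14 and below all of them 2 (5 and 4 with total-count scaling). DNTT, the polymerase that adds bases at the joins, stood at 24.4 CPM in lymph node clone 4 and at 7.61, 10.2, 10.2, 10.2 and 11.01 CPM in the others, a log2 difference of 1.28. The other clones were close to each other in DNTT, and the call itself keeps lymph node clone 4 apart from them. LIG4, the ligase of the pathway, stood at 59.4 CPM against 41.0 to 46.5. The nuclease gene DCLRE1C (Artemis) and NHEJ1 went the other way, at 11.5 CPM against 12.8 to 15.8 and at 2.03 against 2.47 to 2.88. PRKDC, the kinase that holds the broken ends, stood at 63.2 CPM against 63.1 to 71.4. The list's median log2 difference was 0.12, beside 0.00 over all tested features.

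Early B progenitor genes leaned higher. Of 17 tested, 10 lay above all of the other 5 clones and 1 below all of them, while over all features 29.0% lay above all others by any amount and 27.3% below. Scaled by total count alone these shares over all features were 20.3% and 36.2%, and the list then had 10 above and 2 below. DNTT, already counted among the V(D)J genes, alone was called 2-fold above, where 0.643% of all features were. The list's median log2 difference was 0.27. The level of VPREB1, part of the surrogate light chain, was 823 CPM against 465, 512, 536, 603 and 636. IL7R, the receptor for a growth factor of progenitors, stood at 129 CPM against 65.8 to 86.6, and CD34, a progenitor surface marker, at 13.8 against 4.51 to 9.13. LEF1, a transcription factor of the Wnt pathway, stood at 1708 CPM against 1135 to 1273. SOX4 stood at 78.6 CPM against 36.6 to 59.2. IKZF3, a transcription factor of later B cell stages, was the 1 member below all others, at 124 CPM against 143 to 217.

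Genes of antigen presentation leaned lower. Of 10 tested MHC class II genes, 7 lay below all other clones and 1 above, beside 27.3% and 29.0% of all features. Of these genes 0 were called 2-fold in either direction, and the median log2 difference was -0.72. CD74, the invariant chain, stood at 1437 CPM in lymph node clone 4 and at 2841, 2572, 3048, 3090 and 2036 CPM in the others. SLA-DQB1 stood at 155 CPM against 397, 348, 412, 451 and 270. In both genes spleen clone 2 was the nearest to lymph node clone 4. CIITA, the transcriptional switch of the class II genes, stood at 128 CPM against 156 to 252. Of 10 MHC class I genes, 8 lay below all other clones and 0 above, but the median log2 difference was smaller, at -0.27. TAP2, a peptide transporter subunit, stood at 58.2 CPM against 73.3 to 81.1.

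Other B cell genes were mixed. Of 20 B cell identity genes, 6 lay above and 4 below all other clones and 0 were called, with CD72, a B cell coreceptor, at 41.1 CPM against 67.1 to 165 and CD79B, a chain of the B cell receptor, at 921 against 524 to 778. Of 22 genes of B cell receptor signalling, 2 were called below and 0 above, beside 1.54% and 0.643% of all features. By any amount, 10 lay above (45.5%) and 6 below (27.3%) all other clones. VAV2, a guanine nucleotide exchange factor, stood at 4.96 CPM against 18.6, 19.3, 20.3, 15.5 and 18.01. RASGRP3, an exchange factor for Ras, stood at 6.03 CPM against 18.4, 14.4, 16.9, 21.3 and 14.2. The kinases SYK and BTK stood within 2-fold of every other clone, at 980 CPM against 819 to 979 and at 290 against 247 to 286. PTPRC, which encodes CD45, the transcript that HNRNPLL acts on, stood at 332 CPM against 441 to 519. Of the 22 tested members of the HNRNP and splicing list, HNRNPLL alone was called, and it was given as a mark of the clone. Of the 22, 13 lay above (59.1%) and 3 below (13.6%) all other clones. With total-count scaling 5 lay above (22.7%) and 3 below (13.6%), where 20.3% and 36.2% of all features did.

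Immediate-early and interferon genes also leaned lower. Of 24 immediate-early and stress genes, 15 lay below all other clones and 6 above, with a median log2 difference of -0.39. FOSB, a transcription factor induced by stimulation, was called below at 3.35 CPM against 11.4, 13.6, 19.97, 14.3 and 8.67. It was the 1 called of the 24, where 1.54% of all features were called below. FOS stood at 20.9 CPM against 34.1 to 89.3, and EGR1 at 9.28 against 15.4 to 27.4. Of 23 interferon-response genes, 12 lay below (52.2%) and 4 above (17.4%) all other clones, beside the same 27.3% and 29.0%. The median was -0.27. MX2, an antiviral GTPase, stood at 24.2 CPM against 128.9, 87.4, 95.8, 67.5 and 42.7. In each of these 4 genes spleen clone 2 was the next lowest.

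Proliferation genes leaned slightly higher. Of 27 tested, 17 lay above all other clones (63.0%, beside 29.0% of all features) and 1 below (3.70%, beside 27.3%), with 0 called. The median log2 difference was 0.19. With total-count scaling 11 lay above (40.7%, beside 20.3% of all features) and the median was 0.13. TOP2A, the topoisomerase of dividing cells, stood at 1061 CPM against 943, 793, 723, 807 and 943. UHRF1 stood at 462 CPM against 315 to 425. Among genes of the cell cycle and p53 response, CDKN1B, an inhibitor of cyclin-dependent kinases, stood at 214 CPM against 90.7 to 131, whereas CDKN2C stood at 110 against 205 to 232 and ZMAT3 at 70.6 against 131 to 185. The direction of that list's median changed with the scaling, from 0.04 to -0.03 with total counts.

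In the amino acid stress response lymph node clone 4 was close to the spleen clones for some enzymes. Of 27 genes of that list, 9 lay below all other clones (33.3%, beside 27.3% of all features) and 0 above (beside 29.0%). The median log2 difference was -0.47. PSAT1, an enzyme of serine synthesis, stood at 104 CPM in lymph node clone 4, at 217, 405 and 429 CPM in lymph node clones 1 to 3, and at 94.6 and 146 CPM in the spleen clones. Lymph node clone 4 thus lay inside the range of the spleen clones for this gene. ASNS, asparagine synthetase, stood at 166 CPM against 243, 361, 329, 145 and 198. SLC7A11, a cystine transporter, stood at 1.78 CPM, below all others at 3.37 to 12.05 CPM. Of 25 cholesterol and lipid genes 13 lay below and 3 above all others, with a median of -0.17.

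The SLC6A4 difference was not shared by related genes. Of 10 tested genes of monoamine handling and the SLC6 transporter family, SLC6A4 alone was called or above all other clones, and 7 lay below all of them. The median was -0.61. Over all features 0.643% were called above, and 29.0% lay above and 27.3% below all other clones. TPH2, an enzyme of serotonin synthesis, stood at 0.428 CPM against 0.338 to 1.34. The vesicular transporter SLC18A2 stood at 0.286 CPM against 0.189 to 0.670. MAOA, which breaks serotonin down, stood at 49.3 CPM against 34.0 to 50.6. The T cell list had CD247, a signalling chain of the T cell receptor, called above at 53.8 CPM against 20.8, 17.1, 18.004, 17.9 and 18.6. ICOS, a costimulatory receptor, was also called above, at 32.3 CPM against 14.999, 11.2, 13.6, 13.4 and 10.9. Those were 2 of 9 tested T cell genes, where 0.643% of all features were called above. The T cell receptor chains CD3D, CD3E and CD3G were near 0, and the median of the list was 0.09. Of 9 tested myeloid genes 2 were called above (1 with total-count scaling) and 0 below, beside 0.643% and 1.54% of all features. By any amount, 3 lay above (33.3%) and 2 below (22.2%) all other clones, near the shares over all features, and the median was -0.02. MPO, myeloperoxidase, stood at 16.5 CPM against 1.35, 2.19, 1.59, 3.68 and 5.99. CSF3R stood at 3.68 against 0.452 to 1.58, just inside the threshold at 2.01-fold past the nearest clone on the log2(CPM + 0.5) scale.

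Regulators of development and chromatin went in both directions. MEIS1, a homeobox partner of HOX proteins, stood at 26.4 CPM in lymph node clone 4 and at 67.9, 87.6, 90.2, 95.6 and 91.3 CPM in the others. MEIS3 stood at 0.464 CPM against 1.90 to 2.48. MEIS1 and MEIS3 were the 2 called of 18 tested HOX, MEIS and PBX genes, both below, where 1.54% of all features were. Of the 18, 5 lay above (27.8%) and 4 below (22.2%) all other clones, near the 29.0% and 27.3% of all features. DNMT3L, a cofactor of DNA methyltransferases, was the 1 called of 33 genes of DNA methylation and Polycomb, a share near the 2.18% of all features, at 0.892 CPM against 3.77 to 9.25. Of the 33, 16 lay above (48.5%) and 7 below (21.2%) all other clones. With total-count scaling 9 lay above and 9 below (27.3% each), where 20.3% and 36.2% of all features did. DNMT3A, a DNA methyltransferase, stood at 72.4 CPM against 35.0 to 45.7. Of 23 Notch and Wnt genes 3 were called, all below (1.54% of all features were). By any amount, 9 lay above (39.1%) and 4 below (17.4%) all other clones, and the median was 0.07. NOTCH2, a Notch receptor, was higher without being called, at 47.3 CPM against 11.8 to 27.5. NOTCH3 stood at 0.286 CPM against 1.64 to 5.42, LRP5 at 0.571 against 1.86 to 9.42, and FZD6 at 12.8 against 26.3 to 31.3. Of 24 cytokine and receptor genes, IL1R1 alone was called, beside 2.18% of all features, at 2.21 CPM against 7.16 to 9.63. Of the 24, 3 lay above (12.5%) and 8 below (33.3%) all other clones.

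The following called genes lie outside the lists and were named after their values were seen, so they stand for no group. THBS2, a matrix glycoprotein, stood at 48.5 CPM against 149, 173, 168, 217 and 153. LAMB2, a laminin chain, stood at 38.9 CPM against 154, 137, 111, 100.3 and 88.4. LTBP4, which binds latent TGF-beta, stood at 11.8 CPM against 50.6 to 59.3. DSP, a desmosome protein, stood at 50.4 CPM against 104 to 116. ETV5, a transcription factor of the ETS family, stood at 15.9 CPM against 47.7 to 101. Called above were ANTXR1, a cell surface receptor for anthrax toxin, at 56.96 CPM against 5.73 to 17.7, and TENM3, a teneurin of the cell surface, at 30.9 against 1.52 to 12.1. Also called above were PAN3, a subunit of a deadenylase, at 287 CPM against 88.8 to 110.1, and UBE2E3, a ubiquitin-conjugating enzyme, at 170.0 against 46.5 to 82.5.

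Spleen clone 2 was the nearest to lymph node clone 4 among the features called above. It was the highest of the other clones in 47 of the 77, or 61.0%, against 13, 8 and 6 for lymph node clones 1, 2 and 3 and 3 for spleen clone 1. Its median level over the 77 was 25.7% of that in lymph node clone 4 (quartiles 16.7% and 34.6%). In the other clones the medians were 15.5%, 14.9%, 16.3% and 14.4%, and the call itself keeps every value below about 50%. In the 23 features picked because spleen clone 1 was under 5% of lymph node clone 4, which fixes its own value and can pull down clones that vary with it, the medians were 5.65%, 4.04% and 3.02% in lymph node clones 1, 2 and 3, 0.569% in spleen clone 1 and 16.0% in spleen clone 2. Among the 184 called below this was less marked. Spleen clone 2 was the lowest of the other clones in 64 (34.8%) and lymph node clone 1 in 53 (28.8%). The counts were 11 and 23 for lymph node clones 2 and 3 and 33 for spleen clone 1. Spleen clone 2 stood there at a median of 88.9% of the mean of the remaining 4 clones, while the medians of those 4 were 99.5% to 105%. HOXA9, a homeobox gene that was not called, stood at 4.96 CPM in lymph node clone 4, 5.95 in spleen clone 2 and 0.487 to 0.951 in the others. Without spleen clone 2 the features above numbered 93.

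**Figure D4:**
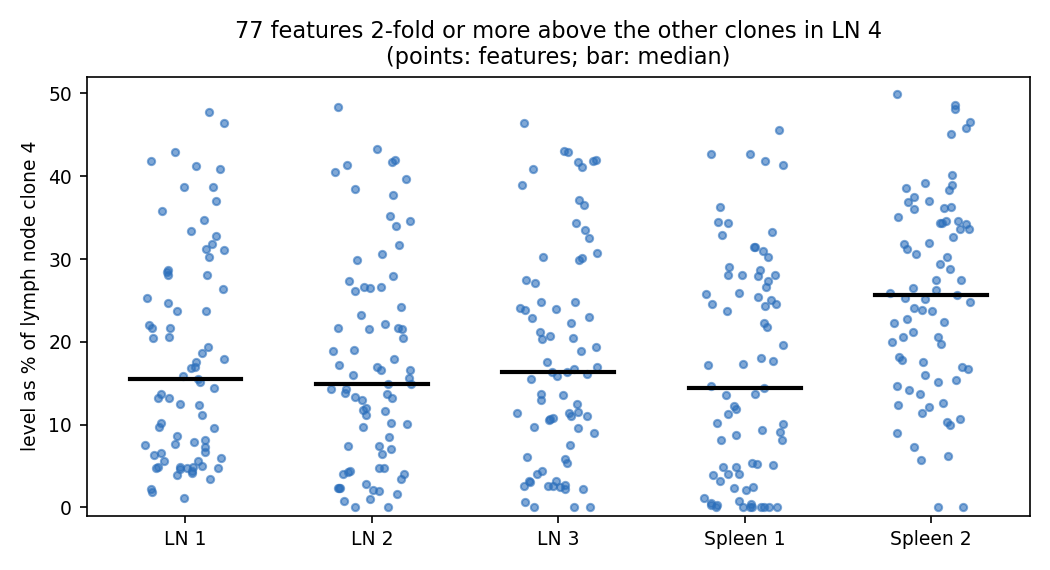
Level in each of the other 5 clones as a percentage of that in lymph node clone 4 (vertical axis) for the 77 features called above, with 1 point per feature and a bar at the median. The medians are 14.4% to 16.3% in 4 clones and 25.7% in spleen clone 2.

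Set beside the controls, 34 of the 77 features above were under 1 CPM in both control libraries (44.2%). Of the 184 below, 71 were (38.6%), and of all tested features 9.0%. Features were filtered by their level in the clones alone. In 24 of the 77 the highest other clone was under 1 CPM, so these passed only through lymph node clone 4. Called features also had mostly low to moderate levels, so the 9.0% is not a like base. Among those called above, the CD21+ control was nearer to lymph node clone 4 than to the mean of the other clones in 26 (33.8%), and the CD3+ control in 30 (39.0%). Among those called below, the CD21+ control was nearer to lymph node clone 4 in 123 (66.8%) and the CD3+ control in 114 (62.0%). Over all tested features these shares were 46.3% and 48.1%. A control with little expression lies nearer to the low side by construction. That side is lymph node clone 4 in the features called below and the other clones in those called above. No likeness to either control is read from these shares. The controls are 1 library each and were not cultured, which cannot be told apart from cell type here.

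Along the genome, the called features were spread over many chromosomes, but the median difference was not the same on all of them. Over 608 features on chromosome 13, lymph node clone 4 lay at a median log2 difference of -0.18 from the other clones, and over 187 features on chromosome 18 at 0.19. On the other 17 chromosomes its medians ran from -0.01 to 0.05. Both spleen clones showed the same shifts, at -0.19 and -0.21 on chromosome 13 and 0.19 and 0.22 on chromosome 18. Lymph node clone 1 had the opposite values, 0.41 and -0.44. Compared directly, lymph node clone 4 differed from spleen clone 1 by 0.01 on chromosome 13 and 0.02 on chromosome 18, and from lymph node clone 1 by -0.50 and 0.53. The shift had 1 sign in every segment of each chromosome, at -0.25 to -0.12 over 11 segments of 20 Mb on chromosome 13 and 0.12 to 0.28 over 3 segments on chromosome 18. Without lymph node clone 1 the medians were -0.10 and 0.11.

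**Figure D5:**
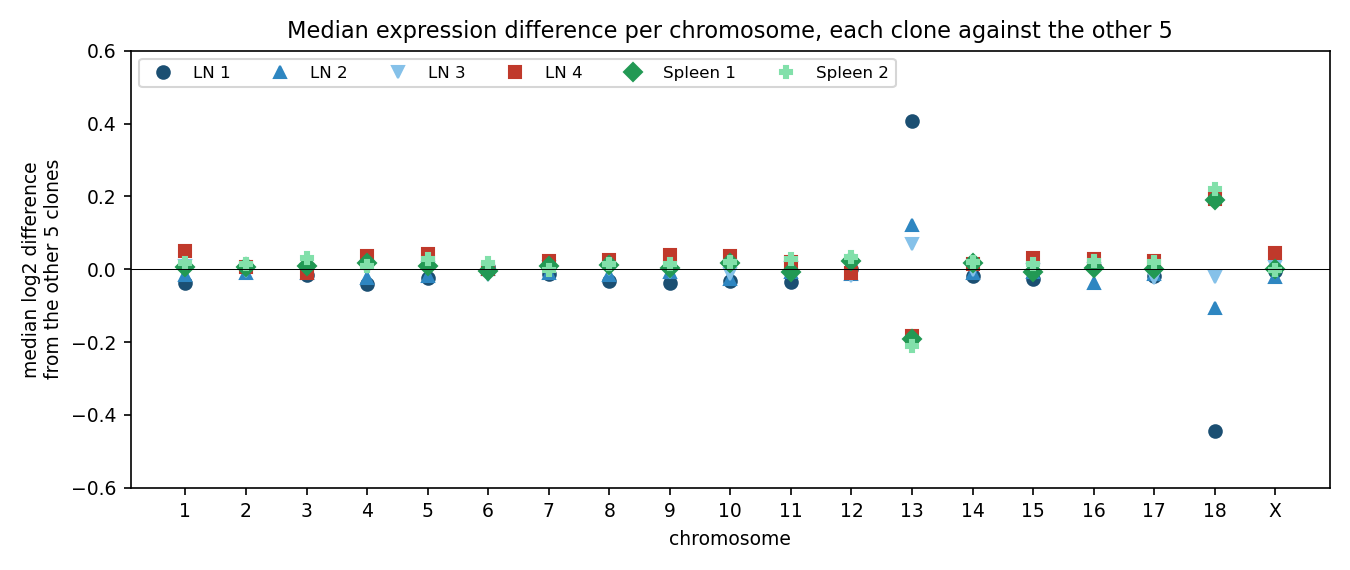
Median log2 difference of each clone from the other 5 (vertical axis) per chromosome (horizontal axis), over features with a mean of 5 CPM or more. On chromosomes 13 and 18 lymph node clone 4 (-0.18 and 0.19) lies with the 2 spleen clones and opposite to lymph node clone 1 (0.41 and -0.44).

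Called genes on these chromosomes lay in both directions. SATB1 and DNMT3L lie on chromosome 13. Of 707 features tested there, 12 were called below (1.70%) and 3 above (0.424%), near the 1.54% and 0.643% of all tested features. On chromosome 18, where lymph node clone 4 lay higher as a whole, ST7 and CTTNBP2 were among 7 features called below. These were 3.20% of the 219 tested there, against 1 called above (0.457%). Of the features called above, 63 had a known chromosome, and 59 of these lay outside chromosomes 13 and 18. Of the features called below, 164 had one, and 145 of these lay outside both chromosomes. In 5 cases features called above were next to each other among the tested genes of a chromosome. These were RAG2 with RAG1, GALM with HNRNPLL, TXNDC16 with GPR137C, AP3M2 with PLAT, and UNC5C with BMPR1B. There were 7 such pairs among the features below, among them PLAG1 with CHCHD7.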

How the data were processed

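RNA of 8 libraries was analysed. Per the file headers, the deposited tables hold read counts per gene, 1 table with 7 libraries and 1 with 8, and the counts of the 7 shared libraries were identical. The larger table was used. It also holds 2 lines at its end that name no gene, which were left out, and other values derived by the authors, were not used here. The submitters' processing notes name Trimmomatic, Bowtie2 and edgeR, and the study description names the Sscrofa11.1 genome. Counting tool, annotation and strand use are not given in the sources read for this work. Of 22366 features, 17091 were above 0 in some library. Symbols for 877 of 6841 features with an Ensembl ID alone came from a separate reference list of gene names. Coordinates for 14817 features came from RefSeq's Sscrofa11.1 gene table.

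Counts were scaled to CPM by TMM factors over the 8 libraries (edgeR 4.0.16, R 4.3.3), and 11967 features with 1 CPM or more in some clone were kept. The difference is on log2(CPM + 0.5), which understates changes of low genes. A feature was called where lymph node clone 4 lay 2-fold or more beyond the nearest other clone. Chromosome medians used features with a mean of 5 CPM or more. No p-value was computed. The calculation was tested on simulated data. Counting intervals are exact, at 95%, and cover counting error only.

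The members and the 35 gene lists were chosen with earlier results of these data known. Named genes are the 5 marks, the 15 with the largest gap in each direction, and in each list up to 4 called per direction or, with fewer than 2, up to 2 with the highest level. Genes outside these groups, further list members included, were chosen after their values were seen. Alternatives were other scalings, pseudocounts, filters, a stricter fold, and leaving out clones.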

Additional observations from a re-analysis of the deposited data

Results flagged for a closer look

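Among the 4 lymph node clones, 13 measures were checked for a sample far from the others, by the gap between the most distant sample and its nearest neighbour as a share of the range. In 6 of them lymph node clone 4 stood farther off than Dixon's 95% critical value for 4 samples. The share was 0.983 for RAG1, 0.938 for RAG2, 0.982 for SLC6A4, 0.982 for HNRNPLL, 0.959 for CADM1 and 0.861 for the TMM scaling factor. Chance flags about 1 in 20 groups. The 5 genes were given as marks of lymph node clone 4 because they stood apart in these counts, so their flags repeat that choice. The TMM factor comes from the same counts, on which the clone was selected, so its flag is a description as well. The chromosome 13 and 18 medians, the library total and the share of mitochondrial counts were not flagged, and in each of these lymph node clone 1 was the most distant of the 4.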

How the results depend on the processing

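The counts of features above (77) and below (184) the other clones stayed within 1.5 times under total-count scaling (72 and 201), RLE size factors (78 and 183), TMM over the clones only (80 and 189, with the 1 CPM filter applied anew; 77 and 189 over the same features) and no filter (85 and 185). With a pseudocount of 2 CPM they were 39 and 92 (131 in all), with a minimum of 10 CPM 33 and 79 (112 in all), and at 4-fold 12 and 30. A pseudocount of 0.1 CPM gave 280 below. Against lymph node clones 1 to 3 alone there were 117 above and 291 below. Against the spleen clones alone, an alternative chosen after seeing the data, there were 300 below (110 above), and the counts outside chromosomes 13 and 18 were added in the same way. Leaving out each other clone in turn gave 78 to 93 above, 187 to 240 below, medians of -0.25 to -0.10 on chromosome 13 and 0.11 to 0.25 on chromosome 18. Fewer clones to exceed, and a lower or higher threshold, move these counts by construction. Over 98 named genes and 10 alternatives, 59 values moved by more than the SD between the other clones. None of the 46 called genes changed direction, which their distance from the other clones nearly fixes. No paired analysis was possible because the result comes from no test and the replicate numbers only name clones. Features under about 1 CPM rest on few counts, so their fold is the least certain.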
